A study of Drosophila melanogaster with 2 samples.

Results

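The proteasome is the barrel-shaped protease that degrades proteins marked with ubiquitin. Its core particle is built of an outer alpha ring and an inner beta ring on each side, and the beta subunits Prosbeta1, Prosbeta2 and Prosbeta5 carry the cutting sites. The regulatory particle sits on the core. Its base holds the Rpt ATPases, which unfold substrates, and its lid and base Rpn subunits bind ubiquitin chains and remove them. Foxo is the forkhead transcription factor that insulin signalling keeps out of the nucleus, and relatives of foxo in human stem cells and in the worm Caenorhabditis elegans have been linked to levels of the lid subunit Rpn6.

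Described here is where foxo chromatin immunoprecipitation sequencing (ChIP-seq) regions lay at the Drosophila melanogaster genes for these subunits. The genes were chosen by symbol, as all protein-coding genes of the annotation whose name starts with Rpn, Rpt, Prosalpha or Prosbeta and a number. That gave 48 of 13945 protein-coding genes. They fell into 14 core particle genes (7 of the alpha ring and 7 of the beta ring), 18 regulatory particle genes (10 of the base and 8 of the lid) and 16 paralogues, whose symbols carry T or R after the subunit number and several of which are known for expression in the testis. The lid subunit Sem1 does not follow the naming and was counted with a list of accessory genes.

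The samples were 2 biological replicates, numbered 5 and 6, of 1 group. They were whole wandering larvae of the third instar, of both sexes pooled and of unstated age, from a stable transgenic line that makes foxo with GFP fused to its C-terminus. Precipitation used an antibody against GFP. The labels give no promoter for the fusion gene, and no untagged larvae, other genotype or treatment was compared, so the comparisons are between genes. Whole larvae mix all tissues, so strong binding in few cells and weak binding in many cannot be told apart. The authors' lists used were 30000 relaxed regions of each replicate and of the pool, and 1427 peaks of the irreproducible discovery rate (IDR) list, which were the 1427 regions of highest signal in the pool. Signal here means the authors' value for a region, whose unit is not given, and rank 1 is the highest signal of a list. Library depth was unknown. A q-value of 0.01 or below was given to 1061 of the relaxed regions of replicate 5 and to 6870 of those of replicate 6. A gene counted as having a region when a summit was at most 1000 bp from a transcription start site (TSS) of the gene.

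Strong foxo peaks were few at proteasome genes, as they were at protein-coding genes as a whole. An IDR summit lay at 2 of the 48 proteasome genes (4.17%, 95% Clopper-Pearson interval 0.509 to 14.3), against 1075 of all 13945 protein-coding genes (7.71%, 7.27 to 8.16). Both were lid genes, Rpn5 and Rpn3. No core particle gene had an IDR summit (0 of 14, which allows a share of up to 21.4%), no base gene (0 of 10, up to 30%) and no paralogue (0 of 16, up to 18.75%; all upper limits are 3 genes of the total). The share among all protein-coding genes lies within the interval for the 48 genes, so a difference was not detectable with this number of genes. Intervals cover counting error over genes only. The regions of highest signal of a single replicate, taken in the same number as the IDR peaks, gave like counts. They held 2 of the 48 genes in replicate 5, where the share of all protein-coding genes was 7.44%, and 3 in replicate 6, where it was 7.6%. Rpn5 was the only proteasome gene among the highest regions of both replicates, against 3.96% of all protein-coding genes.

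Weak regions were spread unevenly over the classes. A pooled relaxed summit lay at 24 of the 48 genes (50%, interval 35.2 to 64.8), against 58.3% of all protein-coding genes. The regulatory particle had 14 of 18 (77.8%, 52.4 to 93.6), the core particle 6 of 14 (42.9%, 17.7 to 71.1) and the paralogues 4 of 16 (25%, 7.27 to 52.4). Within the regulatory particle the base had 7 of 10 and the lid 7 of 8. The paralogues' interval ends below the share of all protein-coding genes, and those of the core and regulatory particles hold it. Of the 16 paralogues, 14 have a single annotated TSS, and 3 of these 14 had a pooled region (21.4%, 4.66 to 50.8), against 50.8% of all protein-coding genes with 1 TSS, so the paralogues' shortfall is at the edge of the interval against genes of that kind. Most of these regions were weak. With the authors' q-value at most 0.01, 5 of the 48 genes kept a pooled region, against 17.5% of all protein-coding genes, and the 5 were Rpn5, Rpn3, Rpt5, Rpn2 and the paralogue Rpt3R. Among genes with a pooled region, the median of the highest signal was 27.1 at proteasome genes and 33.1 at all protein-coding genes. It was 36.0 at the 14 regulatory particle genes, 20.9 at the 6 core genes and 21.6 at the 4 paralogues, where the lowest signal in the whole pooled list was 13.7.

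**Figure D1:**
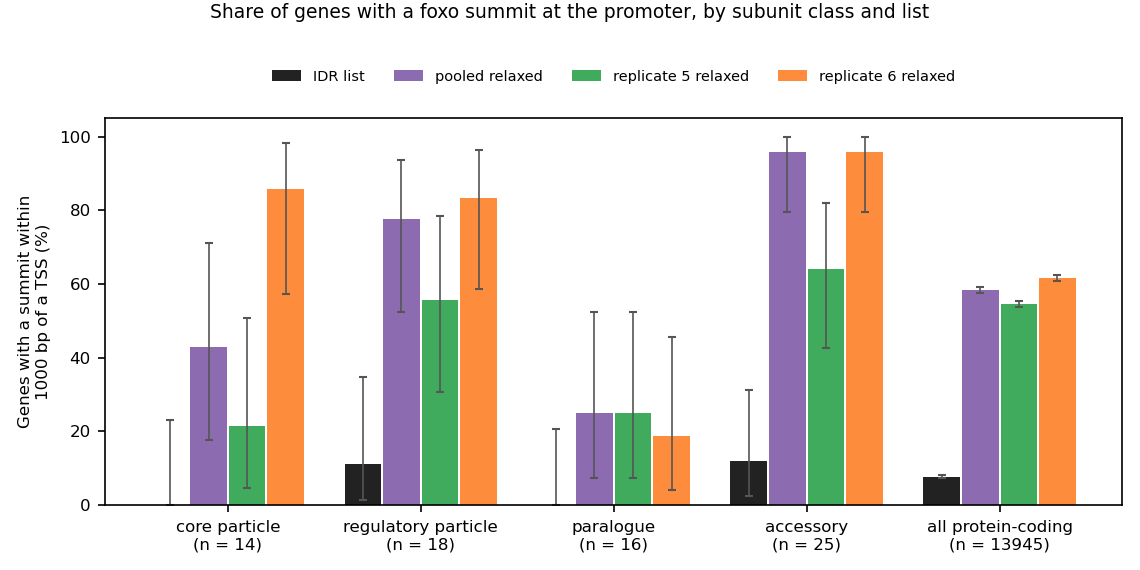
Bars give the percentage of genes with a foxo summit within 1000 bp of a TSS in the IDR list and in the pooled, replicate 5 and replicate 6 relaxed lists, for the core particle (n = 14), the regulatory particle (n = 18), the paralogues (n = 16), the accessory genes (n = 25) and all protein-coding genes (n = 13945). Whiskers are 95% Clopper-Pearson intervals. The core particle stands at 85.7% in replicate 6 and 21.4% in replicate 5, and the paralogues stand at 25% or lower in every list.

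Among the 3 classes, the replicates differed most at the core particle. Replicate 5 had a relaxed summit at 17 of the 48 genes (35.4%), against 54.6% of all protein-coding genes, and replicate 6 at 30 (62.5%), against 61.6%. Of the core genes, 3 of 14 had a summit in replicate 5 (21.4%, interval 4.66 to 50.8) and 12 of 14 in replicate 6 (85.7%, 57.2 to 98.2). The beta ring stood apart most, with all 7 genes in replicate 6 and only Prosbeta2 in replicate 5. The regulatory particle had 10 of 18 genes in replicate 5 and 15 of 18 in replicate 6, and the paralogues 4 and 3 of 16. Both replicates held a summit at 14 of the 48 genes (29.2%), against 43.6% of all protein-coding genes. Replicate 6 alone held one at 16 (33.3%, of all protein-coding genes 18.0%) and replicate 5 alone at 3 (6.25%, of all protein-coding genes 11.0%). With q at most 0.01, replicate 5 kept 2 of the 48 genes, Rpn5 and Rpt5, against 5.84% of all protein-coding genes, and replicate 6 kept 13, against 30.2%. All lists were of equal length while far fewer regions of replicate 5 passed that q-value, and the part of this difference in the counts at proteasome genes was not tested.

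No list held a region at 15 of the 48 genes (31.25%), against 26.2% of all protein-coding genes. They were 11 of the 16 paralogues (68.75%), the alpha ring genes Prosalpha1 and Prosalpha3, and Rpt2 and Rpt4 of the ATPase ring. The paralogues without any region were Prosalpha1R, Prosalpha3T, Prosalpha4T1, Prosalpha4T2, Prosalpha6T, Prosbeta2R1, Prosbeta4R1, Prosbeta5R1, Prosbeta5R2, Rpn12R and Rpn13R. No region at a paralogue means only that none of the 30000 listed regions had its summit there. The number of TSSs per gene was not the same in all classes, with a mean of 1.5 in the regulatory particle, 1.14 in the core, 1.12 in the paralogues and 1.41 in all protein-coding genes. Among the 36 proteasome genes with 1 TSS, 15 had a pooled region (41.7%), against 50.8% of all protein-coding genes with 1 TSS.

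**Figure D2:**
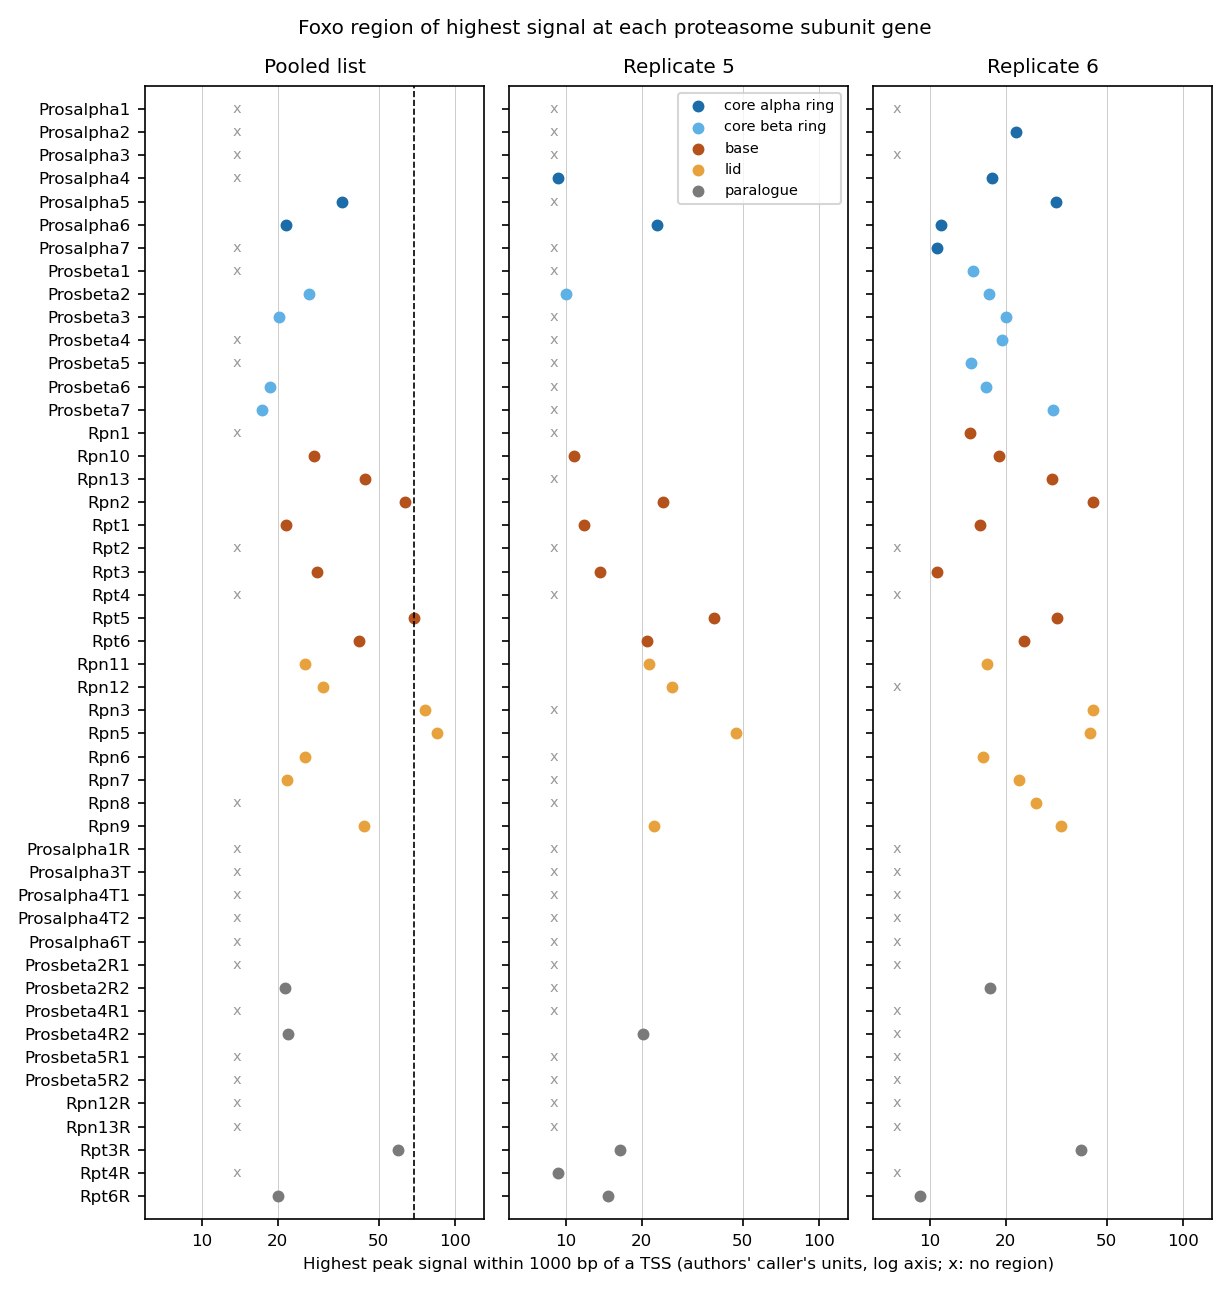
Each row is a proteasome subunit gene and each dot the highest foxo signal within 1000 bp of its TSSs, in the authors' units on a log axis, in the pooled list and in each replicate; a grey x marks a gene with no region. The dashed line is the lowest signal of the IDR list, 69.0. Rpn5 and Rpn3 lie right of it and Rpt5, at 68.9, on its left edge, and the paralogue rows are mostly empty.

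Rpn5, a scaffold subunit of the lid, had the strongest region of the family. Its pooled signal was 84.7 (rank 851) in the interval chr3R:5788937-5789316 on dm6. In replicate 5 the matching region had a signal of 47.2 (rank 635) and in replicate 6 of 42.8 (rank 1386). The summit was 366 bp upstream of Rpn5, in an intron of its divergent neighbour Hat1, a histone acetyltransferase gene. It was 53 bp from a TSS of Hat1, and another Hat1 TSS is 109 bp from that of Rpn5. A second pooled summit, of 41.3, lay 115 bp upstream of Rpn5, and its interval, chr3R:5789188-5789567, covers the stretch printed below. In replicate 5 a summit 138 bp upstream had 16.4, and in replicate 6 one 114 bp upstream had 23.5. The nearest exon of Hat1 and the TSS of Rpn5 are 108 bases apart. That stretch is printed because it is the DNA between Rpn5 and the nearest upstream exon, and none of the consensus sequences searched below lies in it. It runs along the plus strand at chr3R:5789385-5789492.
Rpn5 upstream: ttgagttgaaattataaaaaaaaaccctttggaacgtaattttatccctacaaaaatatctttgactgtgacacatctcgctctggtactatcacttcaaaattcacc

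Rpn3, another lid scaffold subunit, had a pooled signal of 76.2 (rank 1122) at chr2L:19051659-19052038, with the summit in its own 5′ UTR, 59 bp downstream of the TSS. Replicate 6 had a signal of 44.0 there (rank 1298). Replicate 5 had no region within 1000 bp of either TSS of Rpn3, so this IDR peak rests on replicate 6 and the pool. The DNA just upstream of Rpn3 is printed because it holds a run of 45 bases that occurs 2 times within 150 bases, as can be read from its start and again from about its middle. It lies on the plus strand at chr2L:19051640-19051789.
Rpn3 upstream: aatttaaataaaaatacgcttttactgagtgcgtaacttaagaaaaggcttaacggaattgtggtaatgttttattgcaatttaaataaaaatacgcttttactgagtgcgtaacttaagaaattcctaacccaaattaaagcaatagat

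Rpt5, an ATPase of the base, lay just outside the IDR list. Its pooled signal was 68.9 (rank 1436), at chr3R:23752653-23753032. Replicate 5 gave 38.4 (rank 1042) and replicate 6 gave 31.8 (rank 2838), so Rpt5 was among the highest 1427 regions of replicate 5 only. The summit was 33 bp upstream of Rpt5 and 9 bp from the TSS of RanBP3, and the TSSs of the 2 genes are 42 bp apart.

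Rpn2, the large scaffold of the base, had a pooled signal of 63.5 (rank 1760), with the summit 54 bp upstream and nearest to its own TSS. Replicate 6 ranked it much higher, with 44.3 (rank 1278), than replicate 5, with 24.1 (rank 3341). Rpt6, another ATPase, had a summit 17 bp upstream of its TSS with a pooled signal of 41.9 (rank 4335). Replicate 5 gave 21.0 (rank 4713) and replicate 6 gave 23.6 (rank 5349), so the replicates ranked Rpt6 alike. Rpn13, a ubiquitin receptor, had a pooled signal of 44.1 (rank 3915) and 30.3 in replicate 6 (rank 3200), and no region in replicate 5. Its summit was nearer to the TSS of CtsL1, a cathepsin gene, at 85 bp, than to that of Rpn13, at 356 bp. Rpn9, a lid scaffold subunit, had 3 pooled summits. The highest had a signal of 43.8 (rank 3962), lay in an intron of Rpn9 and was matched by a signal of 14.0 in replicate 5 (rank 12283). Replicate 6 had no summit within 150 bp of it and its own highest summit, of 33.1 (rank 2587), elsewhere at the gene.

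Rpn6, the lid subunit linked to foxo relatives in other species, had a weak region. Its pooled signal was 25.7 (rank 10964), with q = 0.221, and replicate 6 gave 16.2 (rank 10257). There was no region in replicate 5. The summit lay in an intron of Rpn6, 149 bp from a TSS of Rpn6 and 101 bp from that of its neighbour ave. Rpn11, the deubiquitinase of the lid, had a pooled signal of 25.5 (rank 11108) at 8 bp upstream of its TSS, and Rpn10, a ubiquitin receptor, had 27.7 (rank 9640) at 435 bp upstream. The lowest pooled signals of their classes were 21.6 at Rpt1 in the base and 21.7 at Rpn7 in the lid.

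In the core particle the highest pooled signal was 35.7 (rank 5990) at Prosalpha5, an alpha ring gene, at chr2R:17412443-17412822. Replicate 6 gave 31.6 there (rank 2894), and replicate 5 had no region. Prosalpha6 had the lowest pooled signal of the alpha ring, 21.5 (rank 14807), and is the core gene that replicate 5 ranked highest, with 22.9 (rank 3822). Of the 3 genes for catalytic subunits, only Prosbeta2 had a pooled region, of signal 26.4 (rank 10457) in its own 5′ UTR. Prosbeta1 and Prosbeta5 had a summit in replicate 6 alone, with signals of 14.9 (rank 11667) and 14.6 (rank 12086), as had the alpha ring gene Prosalpha7, with 10.7 (rank 18823). Prosbeta7 showed a summit in replicate 6 at 18 bp upstream of a TSS with a signal of 30.8 (rank 3073). Its highest pooled summit had 17.4, the lowest such value of the family, and lay 912 bp upstream in the coding sequence of Cerk. A second pooled summit of Prosbeta7, of nearly the same signal (17.1), lay 24 bp upstream of a TSS. Prosbeta4 and Prosbeta6 had summits 82 bp downstream and 6 bp upstream of their TSSs in replicate 6, with signals of 19.3 and 16.7. The highest beta ring regions of replicate 6 thus ranged from 14.6 to 30.8 in signal, with a median of 17.1. The median of that whole list was 12.6, and that of the highest signal at all protein-coding genes with a region was 20.2. With q at most 0.01, replicate 6 kept 1 of the 7 beta ring genes. It kept 3 of the 14 core genes (21.4%), against 30.2% of all protein-coding genes.

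Among the paralogues, Rpt3R stood out. Its pooled signal was 59.5 (rank 2035, q = 0.00123) at chr3R:9756285-9756664, with 16.4 in replicate 5 (rank 8524) and 39.7 in replicate 6 (rank 1691). The summit was 35 bp downstream of a TSS of Rpt3R and 16 bp from the TSS of Alg12, a glycosyltransferase gene, whose TSS is 19 bp from that TSS. The other paralogues with a pooled region were Prosbeta4R2 at 21.9, Prosbeta2R2 at 21.3 and Rpt6R at 20.1, the lowest of the class. Rpt4R had a region in replicate 5 alone, of 9.31 at rank 28344, near the end of that list. Rpt3, the standard counterpart of Rpt3R, had a pooled signal of 28.5 (rank 9149), below that of its paralogue. The Rpt3 summit lay 424 bp upstream of that gene and 49 bp from a TSS of CG11122. The summits of Rpt3 and Rpt3R were thus both nearer to a TSS of a neighbour. Rpt6 at 41.9 was above Rpt6R.

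Many of these regions could belong to a neighbour as well. Another protein-coding gene had a TSS within 1000 bp of a TSS at 26 of the 48 proteasome genes (54.2%), and at 42.9% of all protein-coding genes. Of the 24 highest pooled summits at proteasome genes, 14 were nearest to a TSS of the proteasome gene itself and 10 to a TSS of another gene. That split was not computed for all protein-coding genes. The 5 proteasome genes with a pooled region of q at most 0.01 all had such a neighbour. They were 5 of the 26 genes with one (19.2%), against 25.0% of all protein-coding genes with one. None of the 22 genes without one had such a region, against 11.9% of all protein-coding genes without one. A pooled region was present at 14 of the 26 genes with a neighbouring TSS (53.8%), against 69.2% of all protein-coding genes with one, and at 10 of the 22 without (45.5%), against 50.2%.

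Summits counted here lie within 1000 bp of a TSS by rule. The median distance of the 24 highest pooled summits from the nearest TSS of the gene was 139 bp, against 200 bp for all protein-coding genes with a pooled summit. Of the 24, 11 lay within 100 bp (45.8%, against 30.1%) and 23 within 500 bp (95.8%, against 74.7%). There were 19 upstream and 5 at or downstream of the TSS. By annotation, 8 lay in intergenic DNA, 7 in a 5′ UTR, 6 in introns, 2 in coding sequence and 1 in a non-coding exon. A summit within 150 bp was present in replicate 5 for 15 of the 24 and in replicate 6 for 21, and 12 were matched in both. Directions, annotations and matches were not counted for all protein-coding genes, so they are not a trait particular to proteasome genes. Over the 14 proteasome genes with a summit in both replicates, the highest signals of the replicates had a Spearman rho of 0.49, and over 6079 protein-coding genes it was 0.54. This is a description of lists that share the same control and are cut at the same length.

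**Figure D3:**
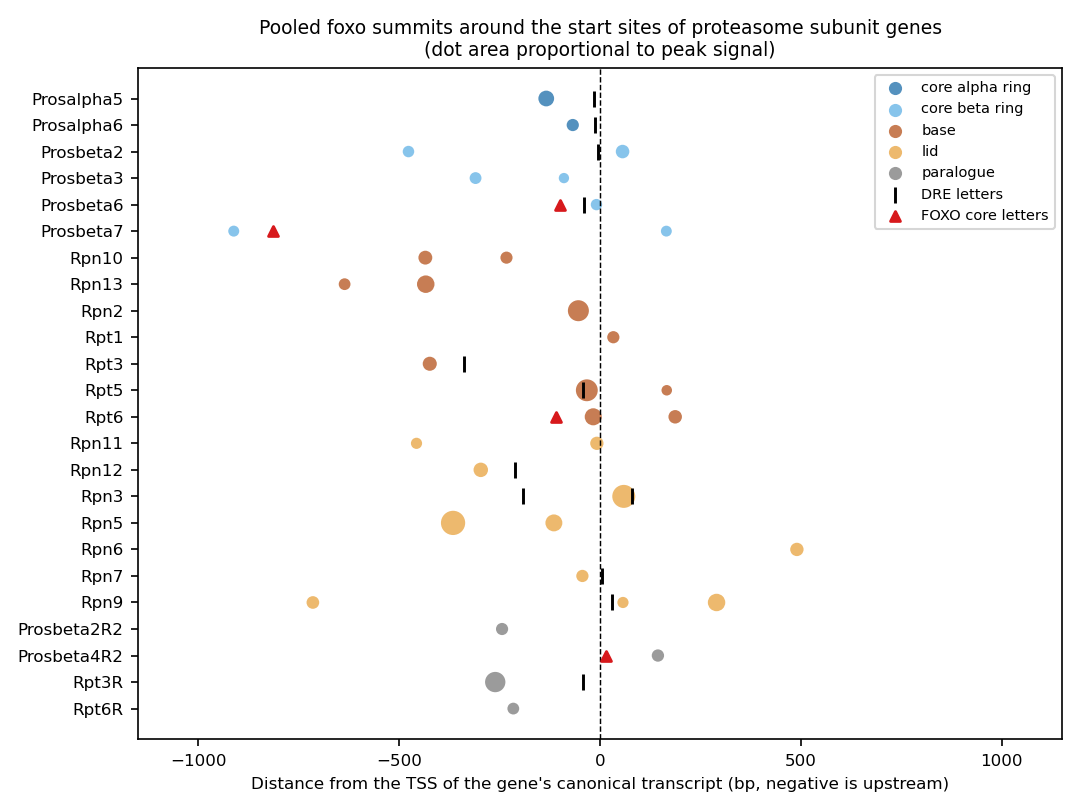
Dots are the pooled foxo summits at the 24 proteasome genes that have any, by distance in bp from the TSS of the canonical transcript, with upstream to the left and dot area proportional to signal. Black ticks mark the DRE letters and red triangles the FOXO core letters found in the promoter or within 100 bp of the highest summit. The largest dots, of Rpn5, Rpn3, Rpt5, Rpn2 and Rpt3R, all lie within 500 bp of the TSS, and the DRE tick of Rpt5 lies 9 bp from its summit; a gene with several TSSs can be closer to a summit than the axis shows.

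Consensus sequences were searched by their letters on both strands in 1 promoter window per gene, the 250 bases before to 50 after the TSS of the canonical transcript, and within 100 bp of the highest pooled summit. The forkhead letters were the FOXO core TGTTTAC and the wider forkhead consensus, in which every FOXO core match is counted again. The FOXO core was present in 6 of 48 proteasome promoters (12.5%), against 9.32% of all protein-coding promoters, and the forkhead consensus in 34 (70.8%), against 62.7%. The promoters with the FOXO core were those of Prosbeta5, Prosbeta6, Rpt2, Rpt6, Prosbeta4R2 and Rpn13R. None of the 6 had an IDR summit, against 9.31% of all protein-coding genes with the FOXO core in the promoter. The 2 genes with an IDR summit, Rpn5 and Rpn3, had neither forkhead sequence in the promoter window or within 100 bp of the summit. A match describes these letters and is not a binding site, and its absence says only that the letters are not in the window. The FOXO core sites of 5 of these promoters are shown to let the letters be read beside the signals, 30 bases each along the strand of the gene, with the FOXO core or its reverse complement in capitals.
Rpt6: ttaattttaatTGTTTACtggacacattta
Prosbeta6: ttaaattaaaaaTGTTTACtaaataaatac
Rpt2: aaacattcagttTGTTTACagtaatcgata
Prosbeta4R2: atatttcaaaaGTAAACAcataatattcac
Rpn13R: tgcatttaatgTGTTTACaaaactagaacg

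Rpt6 had the site 110 bp upstream of its TSS and 93 bp from its summit (chrX:21315928-21315957, plus strand). Prosbeta6 had it 100 bp upstream and 91 bp from a summit of signal 18.7 (chr3L:16610504-16610533, minus strand). Prosbeta4R2 had it 15 bp downstream of the TSS and 129 bp from the summit (chr2L:2655395-2655424, plus strand). Rpt2 (chr3R:23931614-23931643, minus strand) and Rpn13R (chrX:5131765-5131794, plus strand) held the same letters and had no region in any list. A pooled region was present at 3 of the 6 proteasome genes with the FOXO core in the promoter and at 21 of the 42 without, against 62.3% with and 57.9% without among all protein-coding genes.

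The letters most frequent at proteasome promoters relative to all promoters were those of the DNA replication-related element (DRE), TATCGATA, which reads the same on both strands and is bound by the factor Dref at many housekeeping promoters. The DRE was in 12 of 48 promoters (25%), against 8.94% of all protein-coding promoters. It was in 11 of the 32 standard subunit promoters (34.4%) and in 1 of the 16 paralogue promoters, that of Rpt3R, the paralogue with the highest signal. Near the summits it was present at 8 of 24 (33.3%), against 5.62% of the 6299 distinct highest summits of all protein-coding genes and 1.86% of all 30000 pooled summits. The proteasome summits also lay closer to a TSS, at a median of 139 bp against 200 bp. The part of that distance, and of the DRE share of the promoters, in the difference at summits was not tested. A pooled summit was present at 10 of the 12 proteasome genes with a DRE in the promoter and at 14 of the 36 without. Among all protein-coding genes it was present at 76.3% with and 56.6% without. Most paralogues are among the 36. For the 32 standard subunits alone, the pooled counts were 9 of 11 with a DRE and 11 of 21 without. Replicate 6 had a summit at 9 of those 11 (81.8%) and at 18 of those 21 (85.7%), and replicate 5 at 5 and 8. The sites of 9 of the promoters, and the DRE nearest to the IDR summit of Rpn3, are shown along the strand of the gene with the DRE in capitals, so that the letters can be read beside the signals, which ran from 18.7 at Prosbeta6 to 76.2 at Rpn3. Rpn5, Rpn2, Rpn13 and Rpt6, also among the higher signals, had no DRE in the promoter window.
Rpt5: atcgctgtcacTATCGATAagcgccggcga
Rpt3R: ctgttaacagtTATCGATAttttttttacg
Rpn9: gcccggttaaaTATCGATAttctcgcggat
Rpn12: ttgttaaaataTATCGATAttaaagcacaa
Rpn7: gcggtataattTATCGATAattttggggtc
Rpn3, promoter: tgttatcggagTATCGATAtcgaaaaggct
Rpn3, at the summit: accgtaaaacgTATCGATAaattgaaacgt
Prosalpha6: cccgaatccctTATCGATAcccgatacaca
Prosbeta2: ccatgaatataTATCGATAcaatatcgatt
Prosbeta6: gtatgtataccTATCGATAacgtttaagca

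The DRE of Rpt5 lay 9 bp from its summit (chr3R:23752819-23752848, plus strand) and 42 bp upstream of its TSS. Rpn3 had one 193 bp upstream of its TSS, 252 bp from the summit (chr2L:19051582-19051611), and another 21 bp from the summit (chr2L:19051855-19051884). Those of Prosbeta6, Rpn7, Prosalpha6 and Prosbeta2 lay 32, 50, 56 and 62 bp from their summits, and those of Rpt3R and Rpn9 lay 219 and 261 bp away. The DRE of Prosbeta2 was 6 bp upstream of its TSS and that of Prosalpha6 12 bp upstream. Prosalpha3 had a DRE in its promoter and no region in any list.

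**Figure D4:**
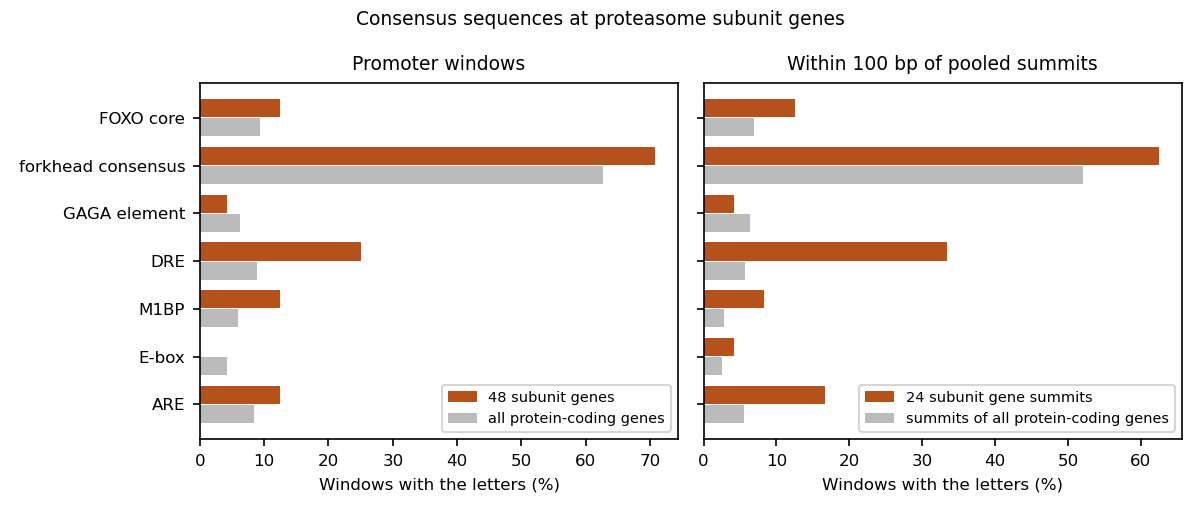
Bars give the percentage of windows that hold each consensus sequence, in promoter windows of the 48 proteasome genes and of all protein-coding genes (left) and within 100 bp of the highest pooled summits of 24 proteasome genes and of all protein-coding genes (right). The DRE is in 25% of proteasome promoters against 8.94% of all, and at 33.3% of proteasome summits against 5.62%, while the FOXO core is at 12.5% against 9.32% and 12.5% against 6.95%.

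The other letters were found at few proteasome genes. The motif of M1BP, a promoter factor of housekeeping genes, was in 6 of 48 promoters (12.5%), against 5.87% of all, and all 6 belonged to standard subunits. These 6, Prosalpha2, Prosalpha4, Prosbeta3, Rpn1, Rpn7 and Rpn8, all had a summit in replicate 6, and 1 of them had a summit in replicate 5. Of the 26 standard subunits without the motif, 21 had a summit in replicate 6 (80.8%) and 12 in replicate 5. A pooled summit was present at 2 of the 6 and at 18 of those 26 (69.2%). Of all protein-coding promoters with the motif, 71.8% had a pooled summit. Among all protein-coding promoters with that motif, 85.3% had a summit in replicate 6 and 60.3% in replicate 5. The antioxidant response element TGACNNNGC, which the stress factor cnc binds with maf-S, was in 6 promoters (12.5%), against 8.48%, and the GAGA element GAGAGAG in 2 (4.17%), against 6.20%. The E-box CACGTG was in none (0 of 48, which allows a share of up to 6.25%), against 4.26%.

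Accessory genes, which assemble, cap or regulate the proteasome or make and handle ubiquitin, carried relaxed foxo regions more widely in the pool and in replicate 6. Of 32 symbols listed, 25 matched the annotation. A pooled region was present at 24 of the 25 (96%, interval 79.6 to 99.9) and an IDR summit at 3 (12%, 2.55 to 31.2), against 58.3% and 7.71% of all protein-coding genes. A pooled region with q at most 0.01 was present at 6 (24%, 9.36 to 45.1), against 17.5%. A relaxed summit was present at 24 of the 25 in replicate 6, against 61.6% of all protein-coding genes. Replicate 5 had one at 16 (64%, 42.5 to 82.0), against 54.6%. Both replicates had one at 15 (60%, 38.7 to 78.9), against 43.6%. The intervals for the IDR list, for that q-value, for replicate 5 and for both replicates hold the shares of all protein-coding genes. The mean number of TSSs of the accessory genes was 1.96, above the 1.41 of all protein-coding genes. Another protein-coding gene had a TSS within 1000 bp at 15 of the 25 (60%), against 42.9%. The part of either in these counts was not tested. The highest signal was at cnc, the fly Nrf factor that drives proteasome genes under stress. The pooled signal of cnc was 104.8 (rank 494) at chr3R:23189865-23190244 in an intron of cnc. The gene has 10 TSSs and held 13 pooled summits. The highest summit lay 364 bp downstream of 1 of these TSSs and 31906 bp downstream of the TSS of the canonical transcript. A summit 46 bp upstream of the canonical TSS had 60.4. Replicate 5 ranked the highest region at cnc 526 and replicate 6 ranked it 501, so cnc was high in both. Plap, which handles ubiquitin with TER94, had a signal of 74.8 (rank 1170), and its matching regions had rank 463 in replicate 6 and 23443 in replicate 5. RpS27A, which encodes ubiquitin fused to a ribosomal protein, had 69.5 (rank 1399) with the summit at a TSS that it shares with Ip259. The partner of cnc, maf-S, had 62.9 (rank 1799), with rank 713 in replicate 5 and 6495 in replicate 6. That summit lay in the 3′ UTR of maf-S, 604 bp downstream of its TSS and 162 bp from a TSS of CG11110. The pooled summit 51 bp downstream of the maf-S TSS had 23.4, with q = 0.290. The assembly chaperone Pomp had 58.0 (rank 2157), with rank 3186 in replicate 5 and 3997 in replicate 6. Sem1, the lid subunit outside the naming rule, had 27.0 (rank 10085) and no region in replicate 5. PSMG1, a core assembly chaperone, was the accessory gene with no pooled region.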

How the data were processed

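The authors deposited interval lists of foxo-GFP ChIP-seq regions from 2 biological replicates. Per the deposited notes with each sample, a relaxed list was made for each replicate from its alignments and a control, with the same control for both, and a pooled list and an IDR list were made from these. The sources used here name no peak caller. Signal is the value deposited by the authors, of unstated unit, and served to rank and describe regions within a list. The significance column holds the authors' −log10 q-value. Lists on dm3 were not used.

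Coordinates are 1-based on dm6. Genes and TSSs came from Ensembl release 115 (13945 protein-coding genes on 6 chromosomes, with the chromosome lengths checked against the lists), sequences from the RefSeq release 6 genome. A summit was assigned to every gene with a TSS within 1000 bp. A region of a replicate matched a pooled one when the summits lay within 150 bp. Shares have 95% Clopper-Pearson intervals, and a share of 0 allows up to 3 genes of the total. No list was tested. Counting was tested on simulated data. Python 3.11.15, pandas 2.3.3, numpy 2.4.6 and scipy 1.17.1 were used.

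The members and lists were chosen with earlier results of these data known. Named were every member with an IDR summit, the 6 of highest pooled signal without one, members among the top regions of both replicates, the lowest of each class, members with no pooled region, and accessory genes with an IDR summit. The catalytic subunits, Rpn6, Rpn10, Rpn11, other beta ring genes, the other paralogues with a region and the other accessory genes named were added after their values were seen. The comparison of summit windows with the highest summits of all protein-coding genes was chosen after seeing the data. Alternatives changed the distance, the use of intervals for summits, the assignment of summits, the threshold, the list and the replicate.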

Additional observations from a re-analysis of the deposited data

How the results depend on the processing

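No paired analysis was possible because there is 1 group. Of 57 alternative values, 41 kept close to the value given. Among the 48 proteasome genes, the count with an IDR summit (2) was 1 when the gene had to hold the TSS nearest to the summit, since that of Rpn5 is nearer to Hat1. It was 0 with the 713 IDR peaks of highest signal, and 1 with regions among the highest of both replicates. The regulatory particle's count was the same in each case (1, 0 and 1). The accessory count (3) was 1 with the highest 713 and 1 with both replicates. The core count (0) was 1 within 2000 bp, by a peak at Prosalpha3. The share of all protein-coding genes (7.71%) was 5.62% with the nearest TSS, 3.93% with the highest 713, 3.96% with both replicates, 6.25% within 500 bp and 9.82% within 2000 bp. The count with a pooled relaxed summit (24) was 5 with a q-value of at most 0.01. Leaving out a replicate by using the other's list gave 2 to 3 proteasome genes and 2 to 3 regulatory particle genes among the highest regions, 0 core genes, 0 paralogues, 3 accessory genes and 7.44% to 7.6% of all protein-coding genes. It gave 17 (without replicate 6) to 30 (without replicate 5) genes with a relaxed summit. The median rank of the highest region at genes that have one was 10048.5 in the pooled list and 5161 to 7809.5 in a single replicate, over different genes. Depth was unknown, so a gene without a region is one not listed.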

Other observations

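Farther from the start sites, 8 IDR summits lay between 1000 and 5000 bp from a TSS of a proteasome gene, most of them close to the TSS of another gene. The share of all protein-coding genes with an IDR summit at that distance was not computed. The highest had a signal of 241 and lay 2242 bp downstream of the TSS of Rpn5, beyond the end of that gene and 144 bp from the TSS of Hpf1. With the region at Hat1, Rpn5 therefore had a strong peak on each side, both nearer to a TSS of a neighbour. A peak of signal 113.5 lay 1857 bp from the TSS of Prosalpha3 and 116 bp from that of CG10543. Rpt2, which had no region within 1000 bp in any list, had a peak of signal 108.3 at 2907 bp upstream in an intron of CG5854. Prosbeta6 had a peak of signal 91.7 at 2008 bp upstream, 60 bp from the TSS of CG4101. Rpn2 had one of 81.1 at 4451 bp downstream, 147 bp from the TSS of rdog. Rpn13 had one of 73.7 at 2109 bp, 10 bp from a TSS of AGO1, and Prosbeta7 one of 87.2 at 3494 bp in an intron of Cerk. Prosbeta2R2 was the only paralogue with such a peak, of signal 76.2 at 3421 bp in an intron of cno.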
